A study of Mus musculus with 6 samples.

Results

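The nuclear-encoded subunits of the respiratory chain were taken by symbol. They were the protein-coding genes whose names start with Nduf, Uqcr, Atp5 or Cox4 to Cox8, together with Sdha, Sdhb, Sdhc, Sdhd and Cycs. Of 97 protein-coding rows that matched, 89 were kept because they reached a minimum level in most libraries. The minimum was an FPKM (fragments per kilobase of gene and per sequenced fragment total, a level corrected for gene length) of 1 or more, in 3 or more of the 6 libraries. The whole table held 55401 genes, of which 12766 passed the same minimum and were tested. Among the 89 kept genes, 88 reached it in all 6 libraries, and Cox6b2 missed it in one S100a16+/- library. The 89 comprised 37 genes of complex I, 4 of complex II, 8 of complex III, cytochrome c (Cycs), 14 of complex IV, 17 of ATP synthase and 8 assembly factors of complex I, which share the Nduf prefix but are not subunits. Of the 89, 76 carried the table's KEGG term for oxidative phosphorylation and 77 its GO term for the mitochondrial inner membrane.

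By their labels the libraries came from hepatic stellate cells, the retinoid-storing pericytes of the liver that turn into myofibroblasts in culture. The cells of 3 libraries were from mice heterozygous for S100a16 (S100a16+/-, also titled S100KD) and those of 3 libraries from WT mice, and C57BL/6J is the strain given for both. All were kept 7 days in medium with FBS, and the comparison asks which genes differ when one copy of S100a16 is lost. The labels give no age and name no animal or culture for any library, so the p-values rest on a spread between samples that may be technical.

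The respiratory chain passes electrons from NADH (complex I) and succinate (complex II) through complex III and cytochrome c to oxygen at complex IV, and the proton gradient built on the way drives ATP synthase. Each complex except complex II joins subunits encoded in the nucleus with a few made from mitochondrial DNA. Nuclear subunit genes are widely expressed, and in cultured stellate cells mitochondrial respiration has been studied as a source of energy and of reactive oxygen during their change into myofibroblasts.

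Promoter sequence is shown because nuclear subunit genes are known to share sites for the transcription factor NRF1 in mammals. RefSeq promoter windows of GRCm38.p6, 250 bases before and 50 bases after each gene's start, were matched by symbol for 74 of the 89 genes. The NRF1 motif searched was GCGC, then A, then any base, then GCGC, on both strands. It was in 19 of the 74 (25.7%), in 11.9% of 9088 tested symbols with a window and in 5.19% of all 27025 symbols. Its palindromic form, with T as the free base, is counted within those matches. It was in 7 of the 74 (9.46%), in 2.39% of tested symbols and in 1.07% of all symbols. The YY1 motif AAGATGGC was in 11 of the 74 (14.9%, against 5.48% of tested symbols and 3.19% of all), and the ETS motif CCGGAAGT in 5 of the 74 (6.76%, against 9.49% and 4.31%). A motif match is a description of the letters and does not show that a factor was bound. The stretches below lie upstream of the RefSeq start of genes described later, are written 5′ to 3′ on the gene's strand, and have the NRF1 match in capitals.
Sdha (chr13:74350294-74350373, minus strand): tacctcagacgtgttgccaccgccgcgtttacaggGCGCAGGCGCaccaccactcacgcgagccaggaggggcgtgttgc
Sdhd (chr9:50603884-50603963, minus strand): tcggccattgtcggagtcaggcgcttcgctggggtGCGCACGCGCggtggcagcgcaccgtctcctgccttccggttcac
Ndufs5 (chr4:123718240-123718319, minus strand): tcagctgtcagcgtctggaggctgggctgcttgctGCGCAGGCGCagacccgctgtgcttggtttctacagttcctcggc
Cox6a1 (chr5:115349076-115349155, minus strand): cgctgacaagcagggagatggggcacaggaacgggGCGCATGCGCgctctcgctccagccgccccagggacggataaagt

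Before the results, 3 facts about the libraries matter. Library totals were 61979103 to 76291481 counts. S100a16, which encodes an EF-hand calcium-binding protein, had 18.0, 17.7 and 30.0 FPKM in S100a16+/- replicates 1 to 3, against 57.7, 58.8 and 56.8 FPKM in WT, a log2 change of -1.35 with an SE of 0.21 and an edgeR adjusted p of 0.0313. That call was lost when any one library other than S100a16+/- replicate 3 was left out, with an adjusted p of up to 0.143. S100a16+/- replicate 3 stood apart: its correlation with the other libraries across all tested genes was 0.929 to 0.949, it had 39654 counts of Xist against 12 to 43 elsewhere, and only 4 counts of the Y-linked gene Ddx3y, where the other 5 had 4943 to 6619. The main results are therefore given with and without it. Markers of other cells moved with it too. Summed FPKM of 14 myofibroblast markers was 1768, 1727 and 514 in S100a16+/- replicates 1 to 3, against 1699 to 1875 in WT, that of 15 endothelial markers was 1083, 1034 and 2271 against 1942 to 2095, and that of 14 hepatocyte markers was 151, 149 and 711 against 238 to 280. Macrophage markers (19 genes) summed to 17946, 19239 and 14058, against 11064 to 11642 in WT. The largest part of that sum was Lyz2, with 9230, 10057 and 5460 FPKM in S100a16+/- replicates 1 to 3, against 4377 to 4595 in WT. The 19 macrophage markers had a median log2 change of 0.10, with 13 above 0 and 6 below. Summed FPKM of 7 cholangiocyte markers was 233, 221 and 82.2 in S100a16+/- replicates 1 to 3, against 35.8 to 41.6 in WT. Of these 7, 3 were tested, with 2 log2 changes above 0 and 1 below. Sums of 10 neutrophil markers were 28.5, 31.5 and 28.5, against 16.8 to 19.8 in WT. Those of 10 lymphocyte markers were 2.49, 2.55 and 7.09, against 8.44 to 8.64. Summed FPKM of 15 stellate cell markers was 128, 125 and 49.5 in S100a16+/- replicates 1 to 3, against 69.7 to 86.2 in WT. Among them Des, which encodes desmin, had 42.9, 43.8 and 2.78 FPKM in S100a16+/- replicates 1 to 3, against 13.0 to 16.9 in WT. Of the 15, 6 were tested, and the defining genes Lrat, Gfap and Reln were at 0.531 FPKM or less in every library. The part of these cells in the results below was not tested, and in such bulk samples fewer cells of a type and less RNA per cell cannot be told apart.

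No respiratory chain gene passed the test between S100a16+/- and WT libraries. Of 89 genes, 0 had an edgeR adjusted p under 0.05, where 4.46% of all tested genes did (364 or 2.85% higher and 206 or 1.61% lower). At an unadjusted p under 0.05 there were 3, Cycs, Uqcrq and Ndufaf5, all with higher means in S100a16+/- libraries, where 22.0% of all tested genes passed that level. DESeq2 called 1 of the 89, Cycs, as higher, where it called 14.8% of all tested genes (8.81% higher and 5.98% lower). Fitted log2 changes, S100a16+/- over WT, ran from -0.27 for Ndufaf7 to 0.35 for Ndufaf5. Their median was 0.05, against 0.00 for all tested genes. Of the 89, 59 were above 0 and 30 below, where all tested genes split into 6412 above and 6354 below. Scaling to library totals instead of TMM put the median of the 89 at -0.004, so the sign of the small median depends on the scaling. The counts of genes above 0, here and by complex below, are with TMM and share this limit.

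The intervals of these changes were narrow. The 95% interval lay within 2-fold either way for 88 of the 89 genes (98.9%), where this held for 78.1% of all tested genes, and within 1.5-fold for 70 (78.7%, against 52.7%). The exception at 2-fold was Cox6b2, with an interval of -1.22 to 0.74. In 248 tested genes of 12 related pathway lists, members left out, the shares were 92.7% within 2-fold and 72.6% within 1.5-fold. Narrow intervals were thus not particular to the chain. The SD of the 89 log2 changes was 0.13, against 0.46 for all tested genes, and none reached 0.5 in size, whereas 84.6% of all tested genes stayed under 0.5. Their levels were high, with a median of 31.2 for the mean FPKM of a gene, against 6.43 for all tested genes.

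**Figure D1:**
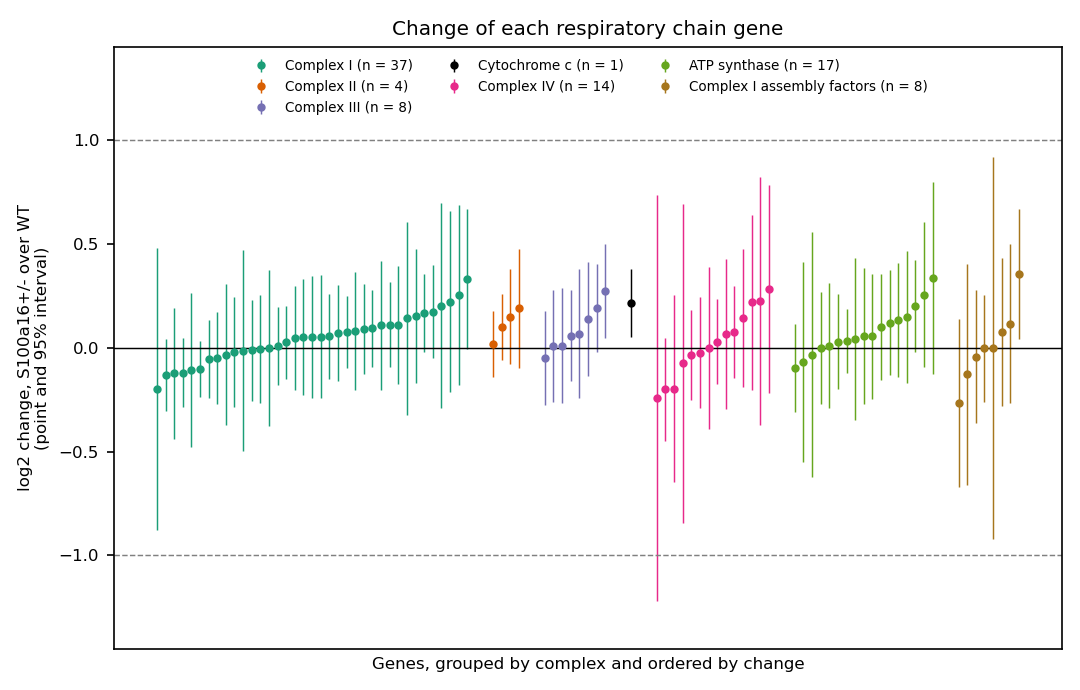
Log2 change of each of the 89 genes, S100a16+/- over WT, with its 95% interval from the edgeR fit to 3 libraries of each genotype, grouped by complex and ordered within it. Dashed lines mark 2-fold either way: every point lies between -0.27 and 0.35, and the interval of 1 gene, Cox6b2, crosses a dashed line.

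The summed level of the chain did not separate the genotypes. The 89 genes summed to 3927, 3982 and 3333 FPKM in S100a16+/- replicates 1 to 3, against 3657, 3733 and 3913 FPKM in WT replicates 1 to 3. The highest and the lowest sum were both S100a16+/- libraries, so the groups overlapped. The mean in S100a16+/- libraries was 3747 ± 360 (SD, n = 3), or 99.5% of the mean of 3768 ± 131 (SD, n = 3) in WT libraries. By complex the mean in S100a16+/- libraries came to 99.9% of the mean in WT libraries for complex I, 103% for complex II, 103% for complex III, 97.1% for complex IV and 99.4% for ATP synthase. These genes took 0.73%, 0.74% and 0.62% of all counts in S100a16+/- libraries, against 0.68%, 0.70% and 0.73% in WT libraries.

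Within that sum, S100a16+/- replicate 3 and its 2 partners lay on opposite sides of WT. The median log2 ratio of the 89 genes to their WT mean was 0.12, 0.16 and -0.12 in S100a16+/- replicates 1, 2 and 3, against -0.03, 0.00 and 0.04 in WT replicates 1 to 3. Above the WT mean stood 69, 76 and 18 of the 89 genes in the 3 S100a16+/- libraries, against 6398, 6430 and 6304 of all 12766 tested genes. Replicate 3 was the lowest of all 6 libraries for 51 of the 89. For 33 genes S100a16+/- replicates 1 and 2 were both above every WT library in FPKM, and for 21 of these 33 replicate 3 was below every WT library. For 8 genes S100a16+/- replicates 1 and 2 were both below every WT library. The shares of all tested genes with these placings, or lowest in replicate 3, were not counted, so these counts cannot be called particular to the chain. The median over all tested genes was within 0.005 of 0 in each library. In the 248 tested genes of related pathway lists, members left out, the medians were 0.11, 0.12 and -0.06 in S100a16+/- replicates 1 to 3. The placing of the medians on opposite sides of WT was thus not particular to the chain.

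**Figure D2:**
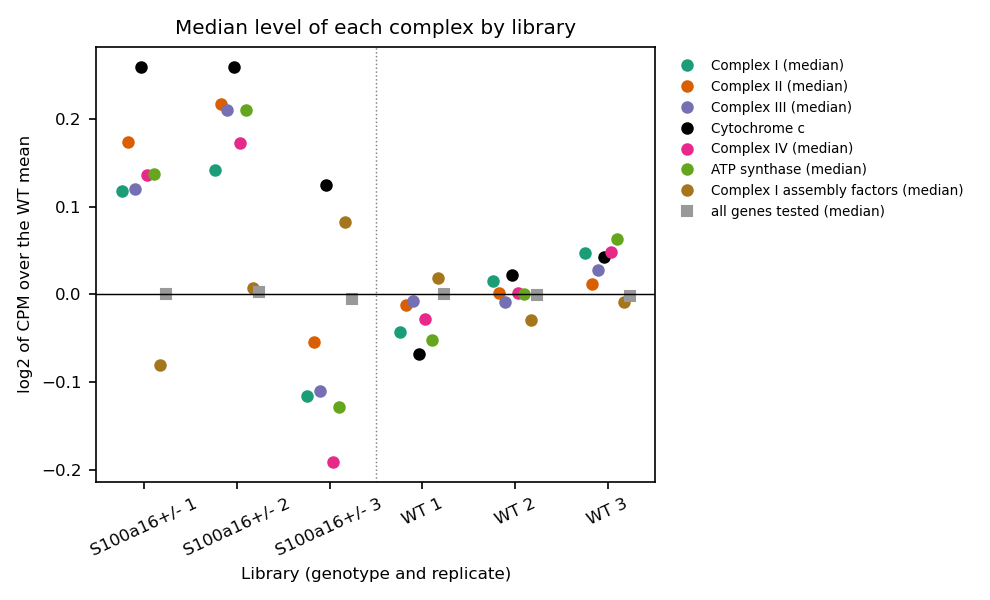
Median log2 ratio of CPM to the WT mean in each library, for each complex, for cytochrome c (1 gene) and for all tested genes. In S100a16+/- replicates 1 and 2 the medians of complexes I to IV and ATP synthase lie above those of all tested genes, in S100a16+/- replicate 3 below them, and the assembly factors do not follow.

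Without S100a16+/- replicate 3, 17 of the 89 genes were higher in S100a16+/- than in WT at an edgeR adjusted p under 0.05 (19.1%) and 0 were lower, where 32.2% of all tested genes were called, 15.8% higher and 16.4% lower. The share called was below that of all tested genes, and the share higher was close to it. In that fit 73 of the 89 log2 changes were above 0, with a median of 0.14, against 6420 of all 12766 tested genes and a median of 0.00. The 248 genes of related pathway lists, members left out, had 181 above 0, with a median of 0.11. Of those 248, 18.1% were called higher and 2.82% lower, so the lean upwards was not particular to the chain. The 17 changes were small, from 0.15 for Sdhd to 0.51 for Atp5g1. They comprised 7 of 37 complex I genes, 3 of 4 complex II genes, 3 of 8 complex III genes, Cycs, 2 of 14 complex IV genes, 1 of 17 ATP synthase genes and 0 of 8 assembly factors. In the library left out, 12 of the 17 were below the WT mean FPKM. The fit without it rests on 2 S100a16+/- libraries, chosen after it was seen to stand apart.

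**Figure D3:**
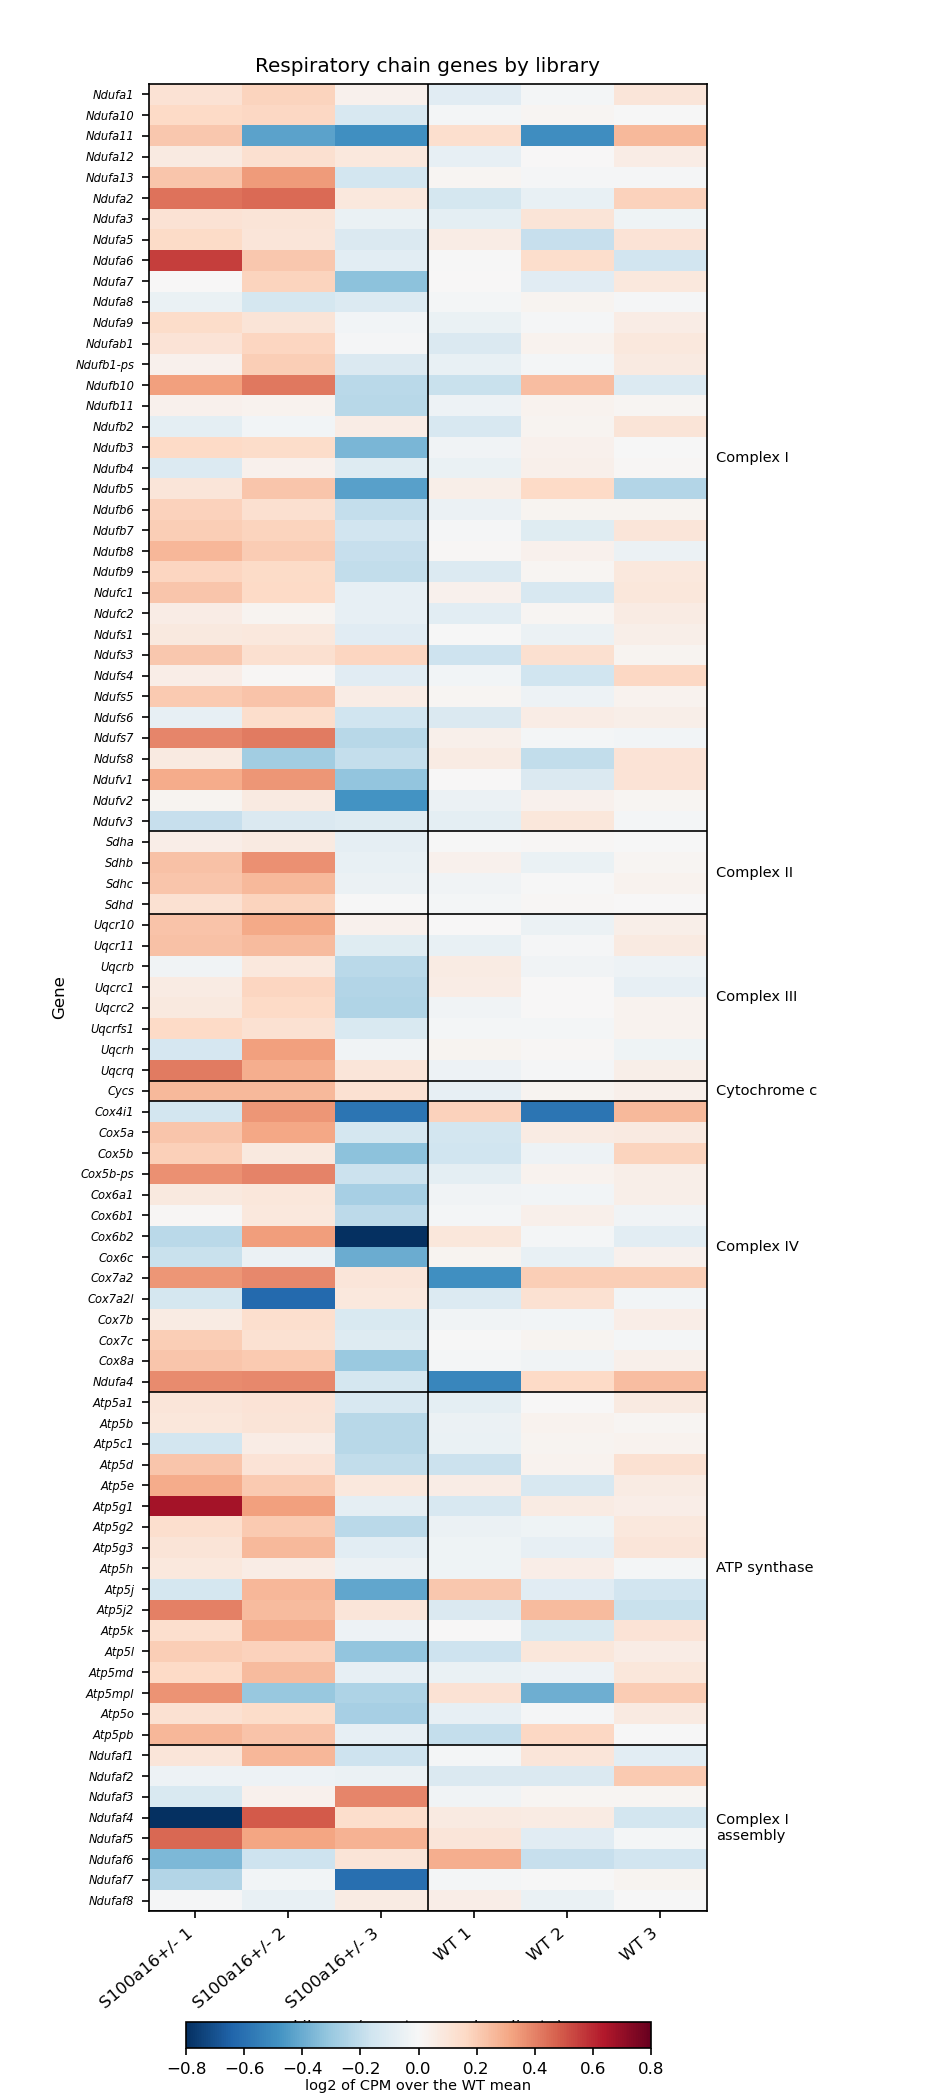
Log2 ratio of CPM to the WT mean for 88 of the 89 genes (rows, by complex) in each library (columns), with values beyond 0.8 either way drawn at the end colours. S100a16+/- replicates 1 and 2 are mostly red (of all 89 genes, 69 and 76 above the WT mean) and S100a16+/- replicate 3 mostly blue (18 of 89 above).

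Complex I, which oxidises NADH, showed no passing gene among 37, and its log2 changes ran from -0.20 (Ndufa11) to 0.33 (Ndufa2), with 23 above 0. The 7 core subunits, among them those that carry the flavin and the iron-sulfur clusters, had a median of 0.03, and the 30 accessory subunits a median of 0.05. Ndufa8, an accessory subunit and the most abundant complex I gene, had 81.4, 76.1 and 80.2 FPKM in S100a16+/- libraries, against 86.9, 89.4 and 87.8 FPKM in WT libraries. Every S100a16+/- value was below every WT value, yet the log2 change was only -0.10 (SE 0.05, edgeR adjusted p = 0.35). Ndufa2, a small accessory subunit, had 88.0, 88.2 and 70.6 FPKM in S100a16+/- libraries, against 61.2, 64.9 and 77.1 FPKM in WT libraries. Its groups overlapped through S100a16+/- replicate 3 and WT replicate 3, and the log2 change of 0.33 (SE 0.14) had an edgeR adjusted p of 0.23. Without S100a16+/- replicate 3 the log2 change of Ndufa2 was 0.44 (edgeR adjusted p = 0.026). Its counts are uncertain, because Tmco6 overlaps it on the opposite strand with 13.9% as many counts, and the sources used here do not say whether counting used the strand.

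Ndufs7, the core subunit that holds the last iron-sulfur cluster before ubiquinone, had 21.1, 21.3 and 14.1 FPKM in S100a16+/- libraries, against 17.2, 16.6 and 16.6 FPKM in WT libraries. S100a16+/- replicates 1 and 2 were above all WT libraries and replicate 3 was below all of them. Its log2 change was 0.22 (SE 0.18, edgeR adjusted p = 0.53) with all libraries and 0.40 (SE 0.05, edgeR adjusted p = 0.00404) without replicate 3. Ndufa13, an accessory subunit also known as GRIM-19, had 49.0, 52.7 and 38.6 FPKM in S100a16+/- libraries, against 44.1, 43.3 and 43.6 FPKM in WT libraries, with the same placing of the libraries. The log2 change of Ndufa13 was 0.15 (SE 0.13, edgeR adjusted p = 0.56) with all libraries and 0.28 (edgeR adjusted p = 0.0128) without replicate 3. Ndufs5, an accessory subunit whose promoter stretch is printed above, had 33.3, 33.5 and 30.7 FPKM in S100a16+/- libraries, against 30.2, 29.2 and 30.7 FPKM in WT libraries. Here replicate 3 lay just above the WT range instead of below it, and the log2 change was 0.17 (SE 0.08, edgeR adjusted p = 0.28). Without replicate 3 the log2 change of Ndufs5 was 0.22 (edgeR adjusted p = 0.0391). Ndufa6, another accessory subunit, had 22.4, 17.5 and 14.7 FPKM in S100a16+/- libraries, against 15.8, 17.5 and 14.3 FPKM in WT libraries. S100a16+/- replicate 1 was the highest of the 6, replicate 2 lay just above the WT range and replicate 3 inside it, and the log2 change of 0.25 had an SE of 0.18.

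Complex II, succinate dehydrogenase, is the complex built wholly from nuclear genes and is also an enzyme of the citric acid cycle. All 4 of its genes had log2 changes above 0, of 0.02 to 0.19, and none passed. Sdha, the flavin-bearing catalytic subunit, had 60.0, 60.3 and 56.0 FPKM in S100a16+/- libraries, against 59.6, 60.5 and 60.1 FPKM in WT libraries. Sdhb, the iron-sulfur subunit, had 36.0, 39.2 and 30.0 FPKM in S100a16+/- libraries, against 32.6, 30.7 and 32.4 FPKM in WT libraries. Sdhb was thus high in replicates 1 and 2 and low in replicate 3, whereas Sdha was inside the WT range in replicates 1 and 2 and below it in replicate 3. The membrane anchors Sdhc and Sdhd gave the same picture as Sdhb. Sdhc had 30.5, 31.0 and 25.8 FPKM in S100a16+/- libraries, against 26.6, 27.1 and 27.9 FPKM in WT libraries. Sdhd had 77.0, 79.2 and 72.1 FPKM in S100a16+/- libraries, against 72.4, 74.2 and 74.0 FPKM in WT libraries. Without replicate 3 the log2 changes were 0.24 for Sdhc (edgeR adjusted p = 0.00802), 0.30 for Sdhb (0.0146), 0.15 for Sdhd (0.0366) and 0.07 for Sdha (0.18), the one that did not pass.

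Complex III hands electrons from ubiquinol to cytochrome c, and 7 of its 8 genes had log2 changes above 0. Uqcrq, a small subunit next to cytochrome b (chr11:53427922-53430831, minus strand), had 45.2, 41.2 and 37.1 FPKM in S100a16+/- libraries, against 34.1, 35.1 and 36.6 FPKM in WT libraries. The groups did not overlap, although S100a16+/- replicate 3 was only just above the highest WT library. The log2 change was 0.27 (SE 0.09) with an edgeR adjusted p of 0.17, and 0.35 (SE 0.06, edgeR adjusted p = 0.00717) without that library. Uqcr10, a small subunit and the most abundant gene of the complex, had 106, 111 and 95.3 FPKM in S100a16+/- libraries, against 94.4, 91.5 and 97.9 FPKM in WT libraries. Its log2 change was 0.19 (SE 0.09, edgeR adjusted p = 0.26), with replicate 3 inside the WT range. Without replicate 3 the log2 change of Uqcr10 was 0.27 (edgeR adjusted p = 0.0161). The core proteins Uqcrc1 and Uqcrc2 had log2 changes of 0.01 each and Uqcrfs1, the Rieske iron-sulfur protein, 0.06. Uqcr11 had copies holding 21.9% as many counts, and its value is uncertain.

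Cycs, the somatic cytochrome c that carries electrons to complex IV and is released in apoptosis (chr6:50562563-50566538, minus strand), had 25.9, 25.7 and 24.1 FPKM in S100a16+/- libraries, against 21.4, 22.9 and 23.3 FPKM in WT libraries. All 3 S100a16+/- values were above all WT values, replicate 3 included. The log2 change was 0.22 (SE 0.07, 95% interval 0.05 to 0.38) with an edgeR adjusted p of 0.14. DESeq2 gave the same log2 change of 0.22 with an adjusted p of 0.0381, and the fit without replicate 3 gave 0.26 (edgeR adjusted p = 0.0125), while over all other alternatives the adjusted p ran from 0.11 to 0.37. Near-identical copies of Cycs held 9.17% as many counts as the gene, and adding them gave 0.24. The groups did not overlap in FPKM for 9 of the 89 genes (10.1%), where this held for 31.4% of all tested genes. Besides Cycs these included Ndufs5, Ndufaf5 and Uqcrq with higher values in S100a16+/- libraries, and Ndufv3, Ndufa8, Ndufaf7 and Cox6c with lower values.

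Complex IV, cytochrome c oxidase, held the most abundant genes. Cox8a, its smallest subunit, had 229, 225 and 164 FPKM in S100a16+/- libraries, against 201, 201 and 211 FPKM in WT libraries. Cox6a1 had 217, 217 and 174 FPKM in S100a16+/- libraries, against 209, 211 and 222 FPKM in WT libraries. In both genes S100a16+/- replicate 3 was the lowest of the 6, and the log2 changes were 0.07 (SE 0.15) and -0.02 (SE 0.11). Without replicate 3 Cox8a was higher by 0.22 (edgeR adjusted p = 0.0104) and Cox6a1 by 0.08 (edgeR adjusted p = 0.17). The other passing gene of the complex, Cox5b-ps, is typed as protein-coding and is nearly identical to the subunit gene Cox5b. Its value is uncertain because Cox5b held 664% as many counts.

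Some complex IV genes varied within a genotype more than between genotypes. Cox4i1, the widely expressed form of subunit 4, had 133, 187 and 101 FPKM in S100a16+/- libraries, against 174, 103 and 184 FPKM in WT libraries. One S100a16+/- library and one WT library were the lowest, close to each other, so the interval of its log2 change of -0.07 was wide (-0.84 to 0.69). Its counts are also uncertain, because Emc8 overlaps it on the opposite strand with 13.1% as many counts. Cox7a2, the widely expressed form of subunit 7a, had 61.4, 62.2 and 52.5 FPKM in S100a16+/- libraries, against 35.4, 57.3 and 57.4 FPKM in WT libraries, with WT replicate 1 low. Cox7a2l, a relative of subunit 7a that takes part in joining complexes III and IV into supercomplexes, had 90.4, 64.3 and 108 FPKM in S100a16+/- libraries, against 95.9, 113 and 102 FPKM in WT libraries, with S100a16+/- replicate 2 low. Over all 89 genes the highest library exceeded the lowest of the same genotype by more than 1.5-fold for 13 genes in S100a16+/- and for 5 in WT. The wider spread in S100a16+/- was general. The SD of FPKM as a percent of the mean had a median over the 89 of 10.6% in S100a16+/- and 5.55% in WT. Over all tested genes these medians were 13.2% and 6.29%.

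The tissue-restricted forms of complex IV subunits were scarce in both genotypes, and most failed the expression minimum. Cox4i2, the form of subunit 4 known from lung and from oxygen-sensing cells, had counts of 0, 10 and 18 in S100a16+/- libraries, against 48, 51 and 38 in WT libraries. Those 3 S100a16+/- counts lie below all WT counts, but the gene was outside the test and makes up at most 0.74% of the FPKM of Cox4i1 and Cox4i2 together in any library. Cox6a2, the heart and skeletal muscle form of subunit 6a, had 64, 98 and 6 counts in S100a16+/- libraries, against 9, 9 and 8 in WT libraries, so S100a16+/- replicates 1 and 2 were high and replicate 3 was not. Cox7a1, the muscle form of subunit 7a, had 1.13, 0.481 and 0.170 FPKM in S100a16+/- libraries, against 0.334, 0.972 and 0.826 FPKM in WT libraries. Cox6b2, a testis form that passed the minimum, had 1.76, 2.56 and 0.829 FPKM in S100a16+/- libraries, against 2.26, 2.11 and 2.02 FPKM in WT libraries, with a log2 change of -0.24, an SE of 0.40 and an edgeR adjusted p of 0.77. The third-highest FPKM of Ndufaf6 and Cox6b2, just inside the minimum, was 1.52 and 2.11, and that of Cox7a1 and Cox4i2, just outside it, was 0.826 and 0.580. The remaining genes below it were Cox8b, Cox8c, Cox7b2, Ndufa4l2 and a second Atp5o row, all with a third-highest FPKM at the table's placeholder of 0.0001.

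**Figure D4:**
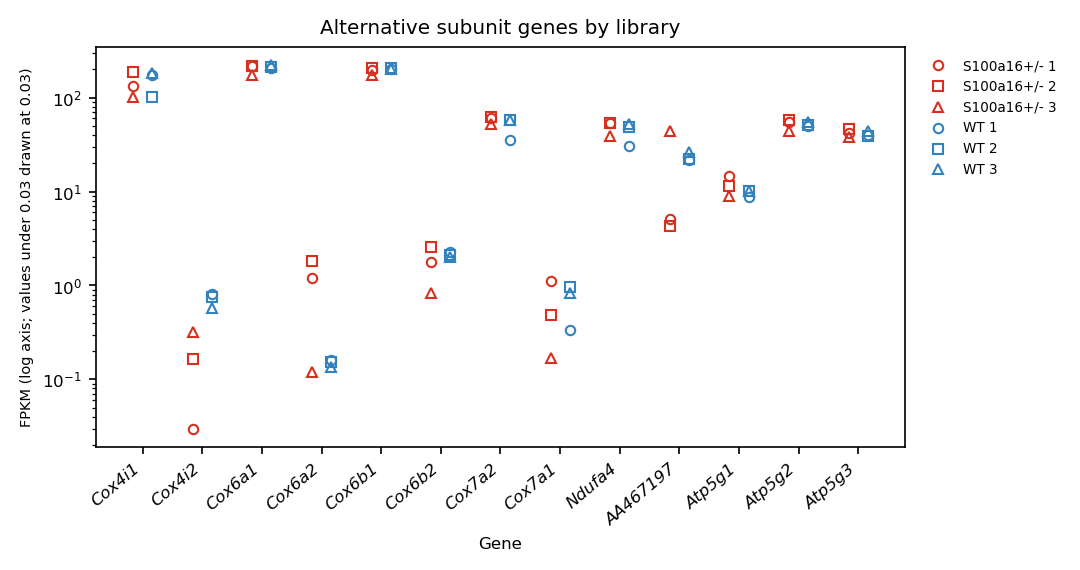
FPKM (log axis) of alternative subunit genes in each library, S100a16+/- in red on the left of each gene and WT in blue on the right, with values under 0.03 drawn at 0.03. The widely expressed forms lie far above the tissue-restricted ones, and AA467197 is low in S100a16+/- replicates 1 and 2 and high in replicate 3.

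Ndufa4, first assigned to complex I and now known as a subunit of complex IV, had 54.3, 54.1 and 38.8 FPKM in S100a16+/- libraries, against 30.2, 48.6 and 51.8 FPKM in WT libraries. The ranges overlapped, and the log2 change was 0.23 (SE 0.24, edgeR adjusted p = 0.65). AA467197, listed in RefSeq with the synonym Nmes1, has a human counterpart whose product takes the place of NDUFA4 in complex IV. AA467197, which lies outside the symbol rule, had 5.06, 4.29 and 44.3 FPKM in S100a16+/- libraries, against 21.6, 22.4 and 26.1 FPKM in WT libraries. As a share of the FPKM of the pair it was 8.52%, 7.36% and 53.3% in S100a16+/- libraries, against 41.7%, 31.6% and 33.5% in WT libraries. The S100a16+/- libraries thus lay on both sides of WT. Its log2 change was -0.35 (SE 0.91, edgeR adjusted p = 0.86) with all libraries and -2.25 (edgeR adjusted p = 0.000212) without replicate 3. The endothelial and hepatocyte marker sums given above had the same order of libraries, low in S100a16+/- replicates 1 and 2 and high in replicate 3, and their part in this was not tested.

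ATP synthase uses the proton gradient to make ATP, and 14 of its 17 genes had log2 changes above 0, from -0.10 (Atp5c1) to 0.34 (Atp5g1). Atp5b, the catalytic beta subunit of the F1 head, had 186, 186 and 153 FPKM in S100a16+/- libraries, against 175, 185 and 184 FPKM in WT libraries, a log2 change of 0.00 (SE 0.11). Atp5a1, the alpha subunit, had 162, 162 and 142 FPKM in S100a16+/- libraries, against 149, 158 and 166 FPKM in WT libraries, a log2 change of 0.03 (SE 0.09). The 5 genes of the F1 head and stalk had a median change of 0.03, the 4 of the peripheral stalk 0.02 and the 5 of the other membrane part 0.12. The c-ring, the rotor that protons turn, is made from the same mature protein encoded by Atp5g1, Atp5g2 and Atp5g3. Atp5g1 had 14.7, 11.6 and 9.05 FPKM in S100a16+/- libraries, against 8.82, 10.1 and 10.1 FPKM in WT libraries, with a log2 change of 0.34, an SE of 0.19 and an edgeR adjusted p of 0.36. Only S100a16+/- replicates 1 and 2 were above the WT range, and without S100a16+/- replicate 3 the log2 change was 0.51 (edgeR adjusted p = 0.0245). Copies of Atp5g1 held 31.2% and those of Atp5g2 23.7% as many counts, so the split between these genes is uncertain.

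The 8 assembly factors of complex I that share the Nduf prefix had low levels, with a median of 2.77 for their mean FPKM. Their log2 changes ran from -0.27 to 0.35 with a median of 0.00, and 4 of the 8 intervals lay within 1.5-fold. Ndufaf5, a factor that modifies the core subunit NDUFS7 in human cells, had 3.10, 2.78 and 2.79 FPKM in S100a16+/- libraries, against 2.50, 2.20 and 2.33 FPKM in WT libraries. Its groups did not overlap, and the log2 change of 0.35 (SE 0.13) had an edgeR adjusted p of 0.18. Ndufaf7, a mitochondrial methyltransferase, had 2.06, 2.37 and 1.62 FPKM in S100a16+/- libraries, against 2.48, 2.52 and 2.56 FPKM in WT libraries. Every S100a16+/- value was lower, with a log2 change of -0.27, an SE of 0.17 and an edgeR adjusted p of 0.42. Ndufaf4 had 1.38, 3.99 and 3.22 FPKM in S100a16+/- libraries, against 3.11, 3.12 and 2.69 FPKM in WT libraries, so the lowest and the highest value were both S100a16+/-.

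The 13 subunits made from mitochondrial DNA held 2.47%, 2.69% and 2.76% of all counts in S100a16+/- libraries, against 2.69%, 2.67% and 2.60% in WT libraries, and 0 of 13 passed the edgeR test (2 at an unadjusted p under 0.05, and 1, mt-Nd2, lower by DESeq2). With the counts of their near-identical nuclear copies added, the shares were 2.73%, 2.89% and 2.77% in S100a16+/- libraries, against 3.03%, 3.03% and 2.92% in WT libraries. S100a16+/- replicate 3 was thus the highest of the 6 without the copies and the second lowest with them, and with them every S100a16+/- library lay below every WT library, so the order of the libraries depends on how the copies are counted. The gene with the smallest adjusted p was mt-Nd2, a core subunit of complex I, with 861, 953 and 887 FPKM in S100a16+/- libraries, against 1208, 1173 and 1169 FPKM in WT libraries. Its groups did not overlap, and its log2 change was -0.34 (SE 0.08, edgeR adjusted p = 0.08). Without replicate 3 it was -0.32 (edgeR adjusted p = 0.00958), and mt-Cytb, the cytochrome b of complex III, was -0.18 (edgeR adjusted p = 0.0213). Near-identical nuclear copies bear on other genes of this set. Gm10925, a copy of mt-Atp6, had 53208, 47132 and 594 counts in S100a16+/- libraries, against 66119, 85685 and 74779 in WT libraries, so its counts were almost gone in S100a16+/- replicate 3. The mitochondrial gene mt-Atp6 itself had 106030, 108660 and 28029 counts in S100a16+/- libraries, against 103110, 115056 and 28734 in WT libraries, low in replicate 3 of both genotypes. The copies of mt-Nd3, mt-Nd4l, mt-Co2 and mt-Co3 showed the same near loss in S100a16+/- replicate 3. Reads of these genes and their copies cannot be told apart with certainty, so values of these 5 genes are uncertain.

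**Figure D5:**
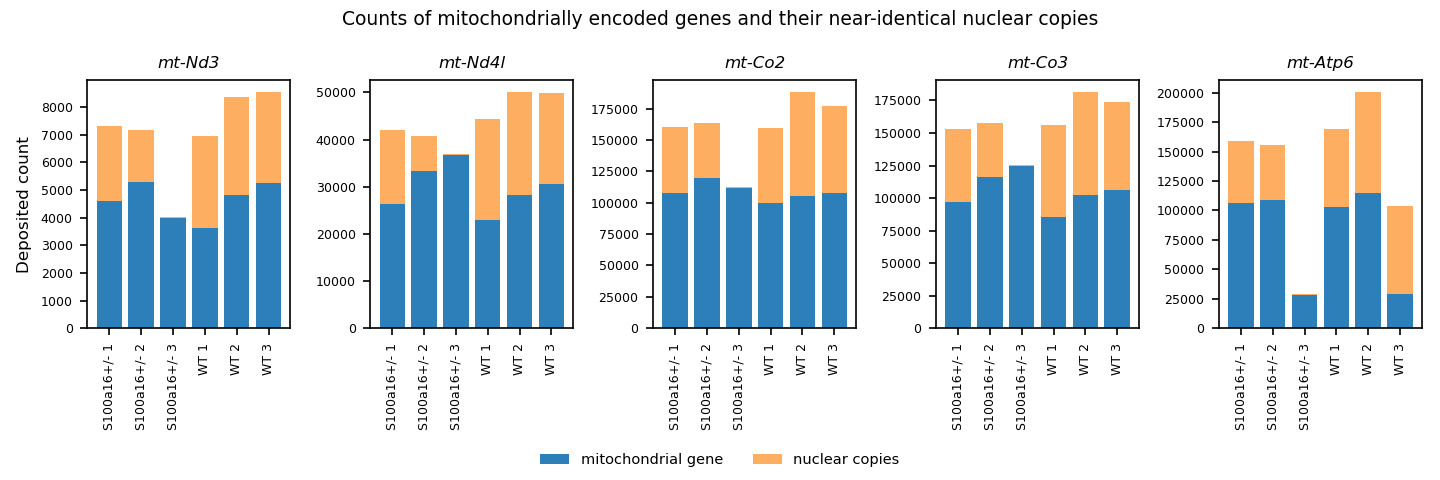
Deposited counts of 5 mitochondrially encoded subunit genes (blue) with the counts of their near-identical nuclear copies stacked on top (orange), for S100a16+/- libraries on the left and WT libraries on the right of each panel. The orange part is all but missing in S100a16+/- replicate 3, where the copy of mt-Atp6 has 594 counts.

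Genes around the chain gave 5 passing genes of 248 tested in 12 pathway lists, members left out (2.02%, against 4.46% of all tested genes). At an unadjusted p under 0.05 there were 27 of the 248 (10.9%, against 22.0% of all tested genes), and DESeq2 called 18 (7.26%, against 14.8%). None passed among assembly factors of complex I (16 tested, 8 of them members) or of complexes II to V (35), the mitochondrial ribosome (80) or protein import (28). The same held for regulators of biogenesis and mitochondrial DNA maintenance (18), cristae and dynamics (18), and the alternative subunit forms (12, each of them a member). It also held for a list of further nuclear subunits (7, of which 2 are members by the symbol rule). At an unadjusted p under 0.05 these 8 lists had 3, 3, 4, 3, 3, 1, 0 and 0 genes in that order, and DESeq2 called 2, 3, 2, 1, 2, 0, 0 and 0. In a list of genes of itaconate and of inputs of succinate or electrons to the chain, 2 of 13 rose, where 4 of the list's genes are members. Acod1, whose product makes itaconate, an inhibitor of succinate dehydrogenase, had 92.5, 97.0 and 40.2 FPKM in S100a16+/- libraries, against 5.96, 6.62 and 6.59 FPKM in WT libraries. All 3 S100a16+/- values were several times the WT values, and the log2 change was 3.64 (SE 0.37, edgeR adjusted p = 0.0122). Gpd2, the mitochondrial glycerol-3-phosphate dehydrogenase that passes electrons to ubiquinone, had 9.80, 9.97 and 10.2 FPKM in S100a16+/- libraries, against 7.03, 7.33 and 6.86 FPKM in WT libraries. Its replicates agreed closely, S100a16+/- replicate 3 included, and the log2 change was 0.55 (SE 0.06, edgeR adjusted p = 0.0132).

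Among 17 uncoupling, nucleotide exchange and antioxidant genes, 1 rose and 1 fell. Sod2, the manganese superoxide dismutase of mitochondria, had 20.0, 21.5 and 15.7 FPKM in S100a16+/- libraries, against 5.44, 5.78 and 5.64 FPKM in WT libraries, with a log2 change of 1.81, an SE of 0.14 and an edgeR adjusted p of 0.00586. Aox1, aldehyde oxidase, which is a cytosolic enzyme although it stood in the list, had 2.06, 2.04 and 1.60 FPKM in S100a16+/- libraries, against 3.59, 3.63 and 3.98 FPKM in WT libraries, with a log2 change of -0.92, an SE of 0.13 and an edgeR adjusted p of 0.0264. Of 19 genes in the citric acid cycle list 1 fell. It was Pcx, pyruvate carboxylase, which stood in the list although it is not an enzyme of the cycle itself. Pcx had 3.21, 3.04 and 3.72 FPKM in S100a16+/- libraries, against 5.06, 4.98 and 4.65 FPKM in WT libraries. Its log2 change was -0.51, with an SE of 0.10 and an edgeR adjusted p of 0.049. All 5 calls held without S100a16+/- replicate 3. Without S100a16+/- replicate 1 or without replicate 2 only the call of Sod2 held (edgeR adjusted p = 0.032 and 0.0286), and without any one WT library 0 of the 5 held. Over all single libraries left out the edgeR adjusted p was at most 0.0945 for Acod1, 0.0952 for Gpd2, 0.0605 for Sod2, 0.137 for Aox1 and 0.2 for Pcx. The macrophage marker sum, most of all Lyz2, was higher in all S100a16+/- libraries than in WT, while 6 of the 19 markers had log2 changes below 0. The part of such cells in the values of Acod1 and Sod2 was not tested.

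Position and likeness of the members gave little more. The 89 genes lay on 19 chromosomes, and the 3 X-linked ones (Ndufa1, Ndufb11 and Cox7b) had log2 changes of -0.05 to 0.11. Across the 89 genes the correlation between any pair of libraries was 0.987 to 0.995, S100a16+/- replicate 3 included, as a description across genes that share a library. The median log2 change was 0.02 for the 19 genes with the NRF1 motif and 0.07 for the genes without it. Of the 89 genes, 24 had near-identical copies in the table and 10 had copies with at least 10% of their counts, Ndufa12, Atp5l, Atp5h, Cox5b, Ndufab1 and Atp5md among them. For 16 a gene on the opposite strand that overlaps them had at least 10% of their counts, and the values of these genes too are uncertain.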

How the data were processed

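Total RNA of cultured stellate cells was selected on oligo(dT) and sequenced from both ends in dUTP strand-marked libraries with molecular identifiers, per the labels' protocols. The submitters' processing notes list HISAT2 2.0.4, StringTie 1.3.4d, cutadapt 1.9, edgeR, DESeq2 and UMI-tools, with no role for any. Per the file headers, each gene and library has 1 count and 1 FPKM value deposited by the authors. The counts as deposited are unscaled whole numbers, and FPKM, per the file headers, is the authors' level per gene length and library size.

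The counts of genes with an FPKM of 1 or more in 3 or more libraries were tested with edgeR 4.0.16 quasi-likelihood (R 4.3.3), TMM scaling and a model of genotype alone. P-values were adjusted by Benjamini-Hochberg over all 12766 genes and a gene was called under 0.05. No fold threshold was used. Each SE was computed as the absolute log2 change divided by the root of the F statistic. Log2 changes are S100a16+/- over WT. The step was tested on simulated data. Alternatives were DESeq2 1.42.0, limma 3.58.1 on log2(FPKM + 1), with pseudocounts of 0.1 and 5 too, other scalings and filters, the replicate number as a block and each library left out. Adding the counts of near-identical copies (at least 95% identity over at least 80% of the coding sequence, BLAST+ 2.17.0 against GENCODE M21) was chosen after seeing the data. Of the members, 76 had the coordinates of that GRCm38 annotation; coordinates of genes are as the table gives them.

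Named genes were the 3 most abundant and the 3 most changed of each complex, alternative subunit forms, genes next to the expression minimum, called list genes and S100a16. Genes outside this rule (such as Ndufa13, Ndufs5, mt-Nd2, mt-Atp6 and its copy, AA467197 and members without overlap) were chosen after their values were seen. One member is counted but its own values are not reported here. The members and lists were chosen with earlier results of these data known.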

Additional observations from a re-analysis of the deposited data

How the results depend on the processing

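No respiratory chain gene was called under any scaling, filter, limma fit or copy setting. DESeq2 called 1 higher (Cycs). Leaving out single libraries gave 0 to 17 higher, the 17 only without S100a16+/- replicate 3, and 0 lower throughout. The replicate block called 0 members and 0 genes at all, higher or lower. Same-numbered libraries did not deviate together (r of -0.125, 0.013 and -0.064), so no pairing by number was seen. Because S100a16+/- replicate 3 stood apart from its partners, these values cannot exclude a pairing. Over all genes (364 higher, 206 lower), DESeq2 called 1125 and 763, no filter 162 and 81, a mean FPKM of at least 5 137 lower, and leaving out single libraries 22 to 2022 higher and 10 to 2093 lower. The pathway-list count of 3 higher and 2 lower became 14 and 4 with DESeq2, 1 lower with RLE size factors and with no filter, 0 lower with the mean FPKM filter, 0 and 0 with the replicate block, and 0 to 45 higher and 0 to 7 lower with single libraries left out. The members' median log2 change ran from -0.01 to 0.14. The cause of these differences was not tested. S100a16 lost its call with no filter (adjusted p = 0.0516) and with the replicate block (0.139). Of 714 values of 45 named genes under 16 settings, 52 changed sign, all uncalled, and 0 called values reversed. Depth was 61979103 counts or more per library, and the relative counting error is largest for genes with few counts, such as Cox4i2 and Ndufaf6.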
